A study of Homo sapiens with 4 samples.

Results

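The expression of MDA-MB-468 cells was set against that of BT-20 cells, whatever short hairpin RNA (shRNA) the cells carried. The comparison used all 4 libraries of the series, 2 for each line, and the 14321 of 50653 listed genes whose mean over the 4 libraries was at least 1 FPKM, a count of fragments scaled to the length of the transcript and the size of the library. In each line, 1 library came from cells with a control shRNA and 1 from cells with an shRNA against QPRT, both delivered by lentivirus in a vector carrying puromycin resistance and kept under puromycin. BT-20 cells were cultured in EMEM and MDA-MB-468 cells in Leibovitz L-15, each with fetal bovine serum, so that line and medium cannot be told apart. There was 1 library for each line and shRNA, and the 2 libraries of a line are therefore not replicate cultures of 1 condition. Where 2 values are given for a line, the first is from the control shRNA library and the second from the QPRT shRNA library.

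BT-20 and MDA-MB-468 are human breast cancer lines that lack estrogen receptor, progesterone receptor and HER2 amplification, the definition of triple-negative breast cancer. MDA-MB-468 is widely used as a model of amplified EGFR, the receptor of epidermal growth factor, and BT-20 also carries a high level of this receptor. Both are epithelial, and lines of this class keep keratins of the basal layer beside those of luminal cells.

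The libraries held between 10321996 and 10945948 fragments, as recovered from the FPKM values and transcript lengths. QPRT, the enzyme that turns quinolinate into a precursor of NAD and the target of the shRNA, was at 249 and 40.5 FPKM in BT-20 and 117 and 18.3 FPKM in MDA-MB-468. It was lower with the QPRT shRNA in both lines, as labelled. The difference between the lines was -1.09 ± 0.20 (SE) on the log2(FPKM + 1) scale and the adjusted p was 5.18e-07 by limma, although the 2 lines overlapped, since the BT-20 library with the QPRT shRNA was below the MDA-MB-468 library with the control shRNA. Without the shRNA as a block, the adjusted p for QPRT was 0.346. All 7 epithelial markers were detected in every library, whereas the 6 leukocyte markers summed to between 0.477 and 0.808 FPKM. Markers of gut and of antibody-secreting cells were present at a low level that was higher in the control shRNA library of each line, as the sum of the 14 intestinal markers was 51.3 and 19.7 FPKM in BT-20 and 125 and 22.5 FPKM in MDA-MB-468. Of these 14 genes, 9 were tested and 3 were called higher in MDA-MB-468. For 7 plasma cell markers, the sums were 35.7 and 17.1 FPKM in BT-20 and 86.4 and 16.6 FPKM in MDA-MB-468, with 4 tested and 2 called higher. The 8 gastric markers summed to 12.9 and 4.27 FPKM in BT-20 and to 27.2 and 3.94 FPKM in MDA-MB-468, with 2 tested and none called. The part of these RNAs in the results was not tested, and no gene of these lists is used below. Genes typical of MDA-MB-468 had low values in the BT-20 library with the QPRT shRNA. For 15 genes with at least 50 FPKM in MDA-MB-468 and no more than 3 fragments in the BT-20 control library, the value in that library was a median of 0.612% of the MDA-MB-468 level (quartiles, 0.415 to 0.783%), against 0.0419% in the control library by which they were chosen, a choice that itself favours a higher value in the other library. Chosen instead by the QPRT shRNA library, only 2 genes met the rule, with medians of 0.167% in the control library and 0.218% in the choosing one. For BT-20 genes in the MDA-MB-468 libraries the medians were 0.0657% (9 genes) and 0.107% (11 genes).

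Differences between the lines were widespread. Of the 14321 genes, 55.1% were called (adjusted p under 0.05, limma with the shRNA as a block), with 4397 (30.7%) higher and 3496 (24.4%) lower in MDA-MB-468. At this rate a call alone says little about a gene, and the size of the difference is given for each gene named. A difference of at least 4-fold on the log2(FPKM + 1) scale together with a call was found for 1292 genes (9.02%), of which 744 (5.20%) were higher and 548 (3.83%) lower in MDA-MB-468. In all 1292, both libraries of one line were above both libraries of the other, which was also so for 77.6% of all genes tested. The median difference over all genes was 0.10 on the log2 scale and the quartiles were -0.51 and 0.70. The standard error ran from 0.19 to 0.32, with a median of 0.24. Protein-coding genes made up 12237 of the genes tested, with 54.9% called and 8.76% at least 4-fold apart. The 1388 long non-coding RNAs were close to this, with 56.3% called and 9.80% at least 4-fold apart. Among 543 pseudogenes 57.3% were called and 14.4% were at least 4-fold apart.

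**Figure D1:**
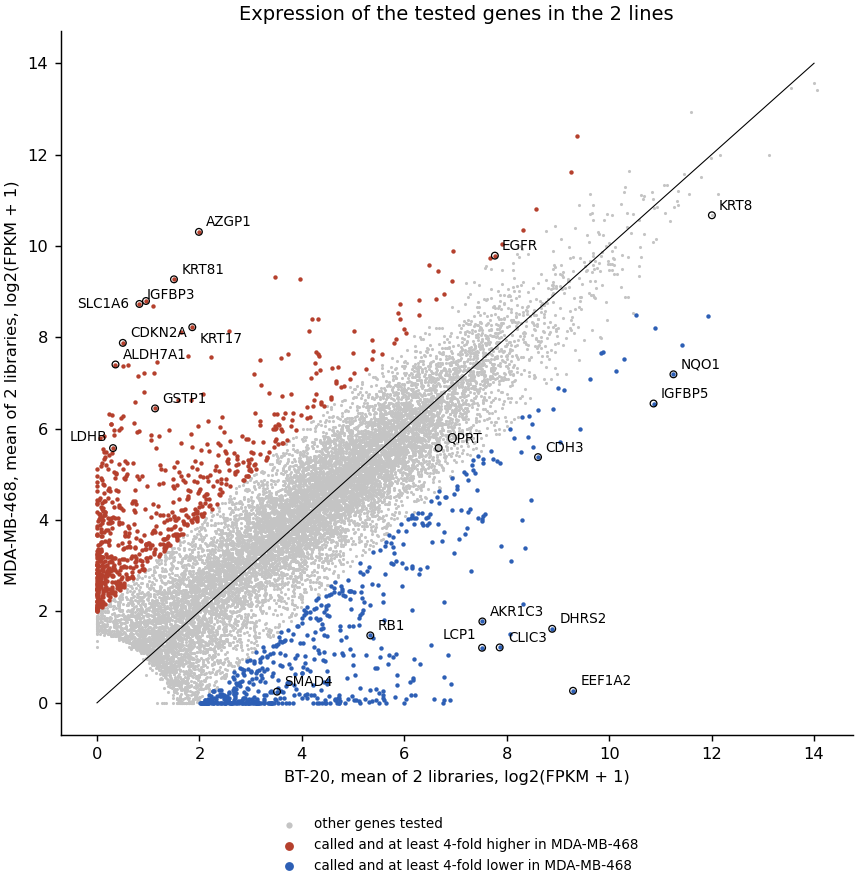
Mean expression of each of the 14321 tested genes in BT-20 (horizontal axis) and MDA-MB-468 (vertical axis), as log2(FPKM + 1) averaged over the 2 libraries of a line. Coloured points are the 744 genes called and at least 4-fold higher and the 548 called and at least 4-fold lower in MDA-MB-468, grey points are the other genes, circles mark the genes with a printed name and the line marks equal levels.

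The difference between the lines was similar with either shRNA. The median absolute difference between the lines was 0.65 on the log2 scale for the control shRNA libraries and 0.63 for the QPRT shRNA libraries, against 0.21 between the 2 libraries of BT-20 and 0.20 between those of MDA-MB-468. Of the 7893 genes called, 7841 had the same sign with both shRNAs. A call rests on the mean of the 2 differences, which itself favours a shared sign. With a cut-off of 2-fold in each, 1901 genes were higher and 1431 lower in MDA-MB-468 with both shRNAs, 1182 passed with the control shRNA alone, 1154 passed with the QPRT shRNA alone and 5 went in opposite directions. These counts have no test, since each difference is between 1 library and 1 library.

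The largest differences in favour of MDA-MB-468 were in secreted proteins, transporters and keratins. AZGP1, a secreted zinc-binding glycoprotein (chr7:99966720-99976157), was at 1263 and 1271 FPKM in MDA-MB-468 and 1.12 and 6.44 FPKM in BT-20, a difference of 8.32 ± 0.20 (SE). IGFBP3, which binds insulin-like growth factors in the extracellular space, was at 361 and 498 FPKM in MDA-MB-468 and 0.16 and 1.71 FPKM in BT-20 (7.90 ± 0.22). SLC1A6, a glutamate transporter best known from the cerebellum, was at 472 and 417 FPKM in MDA-MB-468 and 0.186 and 2.18 FPKM in BT-20 (7.84 ± 0.22). In these 3 genes, the BT-20 library with the QPRT shRNA was above the BT-20 control library, and both were under 1% of the MDA-MB-468 values. KRT81, a hair keratin whose sequence is close to that of KRT86, was at 670.0 and 567 FPKM in MDA-MB-468 and 0.493 and 4.38 FPKM in BT-20 (7.77 ± 0.21). PSPHP1, a pseudogene copy of the serine synthesis gene PSPH, was at 429.8 and 390.5 FPKM in MDA-MB-468 and 0 and 3.51 FPKM in BT-20 (7.60 ± 0.22). Reads from genes with such close copies could be divided between them. Other genes with large differences in this direction were CDKN2A, ALDH7A1, NT5DC2, WNT6, KRT17 and CYP4X1, with differences from 6.35 to 7.37. WNT6, a secreted ligand of the WNT family, was at 230.4 and 334 FPKM in MDA-MB-468 and 2.23 and 2 FPKM in BT-20.

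The largest difference of all was in favour of BT-20. EEF1A2, a tissue-restricted form of the elongation factor that brings aminoacyl-tRNA to the ribosome (chr20:63488012-63499322), was at 605 and 649 FPKM in BT-20 and 0.195 and 0.206 FPKM in MDA-MB-468, a difference of -9.03 ± 0.22 (SE). The 2 MDA-MB-468 libraries held 6 EEF1A2 fragments against 19109 in BT-20, and the 95% interval of the log2 ratio, exact and for counting error only, ran from -13.1 to -10.5. DHRS2, a member of the short-chain dehydrogenase family, was at 533 and 419 FPKM in BT-20 and 1.25 and 3.2 FPKM in MDA-MB-468 (-7.27 ± 0.22). HSPB8, a small heat shock protein, was at 126 and 94.1 FPKM in BT-20 and 0 and 0.0906 FPKM in MDA-MB-468 (-6.72 ± 0.25). The groups were far apart in each of these. HSD17B1, which reduces estrone to estradiol, was at 353 and 289 FPKM in BT-20 and 3.88 and 3.14 FPKM in MDA-MB-468 (-6.16 ± 0.22). LCP1, an actin-bundling protein typical of leukocytes, was at 193 and 172 FPKM in BT-20 and 1.64 and 1.02 FPKM in MDA-MB-468 (-6.31 ± 0.23), in libraries where the leukocyte markers themselves were near 0. CLIC3, PSCA, BEX3, FKBP10, TRIM17 and the pseudogenes ANKRD20A19P and NCOR1P4 completed the 12 largest, with differences from -6.84 to -6.20 among those with a fragment in MDA-MB-468. NCOR1P4 had no fragment in MDA-MB-468 and was at 121 and 93.6 FPKM in BT-20.

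Genes found almost in 1 line alone were collected by their values, without a test. They had at least 5 FPKM in both libraries of a line and less than 1/50 of the lower of these in both libraries of the other. In MDA-MB-468 157 genes met this rule and in BT-20 130 did. Leaving out the BT-20 library with the QPRT shRNA raised the first count to 195 and the second to 142, and over all 4 ways of leaving out 1 library the counts were 178 to 208 and 139 to 160. The other line had no fragment at all for 27 of the 157 and for 55 of the 130. For some of these the depth cannot show a 50-fold difference. With a floor of 3 fragments over the 2 libraries of the other line, AC018692.3 was at least 5.75-fold higher in MDA-MB-468. By the same floor ENSG00000232502 was at least 15.8-fold higher in BT-20. Protein-coding genes made up 131 of the 157 and 95 of the 130. The chromosomes with the most genes of the MDA-MB-468 group were 1 (19 genes, 12.1%), 2 (16 genes, 10.2%) and 6 (13 genes, 8.28%), which held 10.4, 6.53 and 5.11% of all tested genes. For the BT-20 group they were 16 (17 genes, 13.1%), X (13 genes, 10%) and 19 (11 genes, 8.46%), which held 4.89, 3.04 and 7.81% of all tested genes. Those with the highest values in MDA-MB-468, apart from genes already named, were EFHD1, a mitochondrial calcium-binding protein, at 213 and 175 FPKM in MDA-MB-468 and 2.46 and 2.39 FPKM in BT-20, and KRT23, a keratin, at 185 and 164 FPKM in MDA-MB-468 and 0.856 and 1.75 FPKM in BT-20. In BT-20 CDH5, the cadherin of endothelial junctions, was at 96.5 and 134 FPKM in BT-20 and 1.24 and 0.912 FPKM in MDA-MB-468, and of the other 3 endothelial markers PECAM1 and VWF were also called lower in MDA-MB-468, while KDR was called higher, at 0.066 and 0 FPKM in BT-20 and 1.57 and 2.45 FPKM in MDA-MB-468. The BT-20 list held a homeobox factor, MSX2, at 79.4 and 49.7 FPKM with no fragment in MDA-MB-468, at least 784-fold higher when 3 fragments over the 2 MDA-MB-468 libraries are taken as the floor. MSX2 was singled out after its values were seen.

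The start regions of these genes were looked at in the RefSeq table of GRCh38.p14, which gave 300 bases, from 250 before to 50 after the start, for 110 of the 157 and 75 of the 130. The sequence TATAAA, read on the strand of the gene, was in 12 of 110 (10.9%) for MDA-MB-468 and in 5 of 75 (6.67%) for BT-20, while it was in 395 of 10533 (3.75%) of the promoters of all tested genes found in the table. The median number of CG dinucleotides, which read the same on both strands, was 21.5 and 20 in these groups and 26 in all promoters. Fewer than 5 CG were in 14 of 110 (12.7%) and 10 of 75 (13.3%), against 616 of 10533 (5.85%). These are descriptions of the letters without a test, and TATAAA was counted anywhere in the window, whatever its distance from the start. The promoters of 4 genes are shown because they hold the TATAAA sequence, printed in capitals, LDHB, a lactate dehydrogenase subunit, and CCN2, connective tissue growth factor, from the MDA-MB-468 group and DHRS2 and LCP1 from the BT-20 group. They lie on the minus strand at chr12:21657793-21658092 and chr6:131951323-131951622, on the plus strand at chr14:23629865-23630164 and on the minus strand at chr13:46182128-46182427.
LDHB: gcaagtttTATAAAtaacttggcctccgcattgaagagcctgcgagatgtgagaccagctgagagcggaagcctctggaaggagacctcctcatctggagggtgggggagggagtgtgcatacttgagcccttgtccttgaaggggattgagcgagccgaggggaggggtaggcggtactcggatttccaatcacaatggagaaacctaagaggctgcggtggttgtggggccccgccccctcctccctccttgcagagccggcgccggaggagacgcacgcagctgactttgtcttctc
CCN2: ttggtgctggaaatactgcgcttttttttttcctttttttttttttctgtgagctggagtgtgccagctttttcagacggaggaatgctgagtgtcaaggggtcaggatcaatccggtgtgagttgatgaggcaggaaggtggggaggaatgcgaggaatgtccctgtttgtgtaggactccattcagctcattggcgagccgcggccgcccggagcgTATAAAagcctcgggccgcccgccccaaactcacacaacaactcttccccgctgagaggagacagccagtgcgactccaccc
DHRS2: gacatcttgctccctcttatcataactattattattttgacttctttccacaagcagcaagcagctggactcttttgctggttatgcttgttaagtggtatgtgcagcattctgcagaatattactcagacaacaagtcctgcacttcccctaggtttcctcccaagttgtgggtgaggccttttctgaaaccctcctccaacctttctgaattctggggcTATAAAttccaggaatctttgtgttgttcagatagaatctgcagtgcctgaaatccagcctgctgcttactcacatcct
LCP1: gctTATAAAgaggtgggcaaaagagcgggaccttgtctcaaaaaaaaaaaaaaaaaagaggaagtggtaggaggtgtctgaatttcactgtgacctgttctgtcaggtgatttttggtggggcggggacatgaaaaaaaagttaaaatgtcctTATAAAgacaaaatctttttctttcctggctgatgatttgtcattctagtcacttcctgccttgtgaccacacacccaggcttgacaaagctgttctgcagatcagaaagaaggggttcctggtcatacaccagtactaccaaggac
CCN2 was at 43.5 and 67.7 FPKM in MDA-MB-468 and 0.0403 and 0.0392 FPKM in BT-20, and was chosen after its values were seen. LDHB and CCN2 had 14 and 15 CG in this window, DHRS2 had 0 and LCP1 had 2. The TATAAA of LDHB and the first copy in LCP1 lie at the end of the window far from the start. A promoter window of CDKN2A on the minus strand, at chr9:21995275-21995574, is shown with its 28 CG dinucleotides in capitals. The gene had the largest difference among the tumour suppressors, and this window had a CG count near that of all promoters. The window spans the outer end of the gene, at 21995301. Starts further inside the gene are not shown, as the first listed window of each symbol was used.
CDKN2A: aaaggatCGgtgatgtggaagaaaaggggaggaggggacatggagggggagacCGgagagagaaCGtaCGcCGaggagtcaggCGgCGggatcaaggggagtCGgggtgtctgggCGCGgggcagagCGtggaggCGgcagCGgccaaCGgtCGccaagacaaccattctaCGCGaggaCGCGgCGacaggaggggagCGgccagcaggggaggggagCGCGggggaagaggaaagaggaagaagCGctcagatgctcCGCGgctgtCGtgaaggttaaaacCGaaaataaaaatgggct

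Tumour suppressors differed in both directions, and each line was low in different ones. Of 17 tested genes, 5 were higher, 3 were lower and 9 were not called, and 5 of the 17 were at least 4-fold apart. CDKN2A, which encodes the p16 and ARF inhibitors of the cell cycle and of MDM2, was at 225 and 244 FPKM in MDA-MB-468 and 0 and 1.01 FPKM in BT-20 (7.37 ± 0.24). CDKN2B, its neighbour and the p15 inhibitor of CDK4 and CDK6, was at 29.1 and 35.6 FPKM in MDA-MB-468 and 0.194 and 0.33 FPKM in BT-20 (4.72 ± 0.27). The BT-20 libraries held 9 CDKN2A and 11 CDKN2B fragments in all. RB1, the retinoblastoma protein that holds E2F in check, was at 33.7 and 46.1 FPKM in BT-20 and 1.61 and 1.96 FPKM in MDA-MB-468 (-3.86 ± 0.25), from 62 fragments in MDA-MB-468 and 1407 in BT-20. SMAD4, the shared signal carrier of the TGF-beta family, was at 9.67 and 11.2 FPKM in BT-20 and 0.279 and 0.0986 FPKM in MDA-MB-468 (-3.27 ± 0.29), from 8 and 443 fragments. For RB1 the 95% counting interval of the log2 ratio was -4.88 to -4.12, and for SMAD4 it was -6.99 to -4.78. In none of the 4 genes did the lines overlap. The FPKM values hold no information on mutations.

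**Figure D2:**
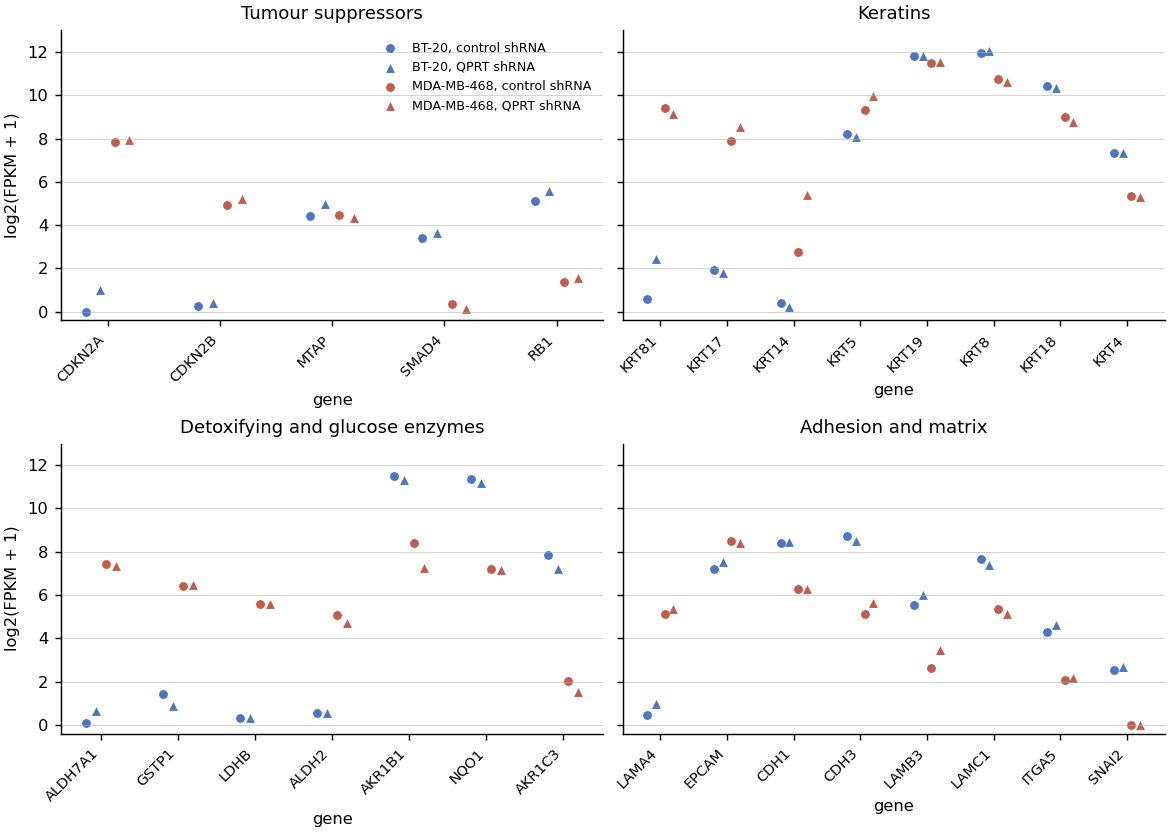
Expression of 28 list members in each of the 4 libraries, as log2(FPKM + 1), with circles for the control shRNA and triangles for the QPRT shRNA. CDKN2A and CDKN2B sat near 0 in BT-20, SMAD4 and SNAI2 near 0 in MDA-MB-468, and the 2 libraries of a line were close together for most genes.

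The neighbours of CDKN2A, RB1 and SMAD4 on the chromosome were examined, 10 tested genes on each side. Over all genes tested, 30.7% were called higher and 24.4% lower. On chromosome 9 the shares were 18.5% and 43.1%, and on chromosome 13 they were 34.3% and 30.4%. MTAP, the adjacent salvage enzyme of methionine metabolism, was at 20.4 and 30.4 FPKM in BT-20 and 21 and 19.2 FPKM in MDA-MB-468 (-0.30 ± 0.23, adjusted p 0.27), whereas CDKN2B-AS1, an antisense RNA that overlaps CDKN2B, was higher in MDA-MB-468 (2.11 ± 0.31), as was ELAVL2, the next tested gene (1.93 ± 0.30). The 7 tested genes beyond ELAVL2 were not called. On the side of MTAP, FOCAD was higher (1.06) and MLLT3 (-0.94) and DENND4C (-1.01) were lower. Of the 21 genes of this window 5 were higher, 2 lower and 14 not called. Most genes around RB1 were also lower. SUCLA2 (-1.82), MED4 (-1.44) and ITM2B (-1.68) before RB1 were called lower, with RB1 more than 2 log2 units below the adjacent ITM2B. RCBTB2 (-1.64), also called lower, lies within the span of RB1 and was counted after it by its start. Beyond RB1, ENSG00000275202 (-1.93) and FNDC3A (-0.92) were called lower. LCP1, the seventh tested gene before RB1 and described above, was lower by more than RB1 (-6.31). Of the 21 genes of this window 14 were lower, 2 higher and 5 not called. Most genes around SMAD4 were higher, opposite to SMAD4 itself, but 65.6% of all tested genes on chromosome 18 were called higher too. ELAC1, the adjacent tRNA-processing enzyme, was lower in MDA-MB-468 (-1.21 ± 0.31), and of the 21 genes 15 were higher, among them ME2 (0.88) before ELAC1 and MEX3C and MBD2 (1.39 for MBD2) after SMAD4. DNA copy number was not measured, and its part in these differences was not tested.

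The longest run of adjacent genes was found on the short arm of chromosome 16. Runs and windows of adjacent genes were searched for after the differences had been seen and have no test. From HMOX2 to PPL (chr16:4474690-4960741, GRCh38), 12 consecutive tested genes were all at least 4-fold lower in MDA-MB-468, with a median difference of -4.89 on the log2 scale. The medians were -4.89 with the control shRNA and -4.86 with the QPRT shRNA. In BT-20 these genes ranged from 2.78 to 78.2 FPKM. In MDA-MB-468 11 of the 12 were under 1 FPKM in both libraries, with no more than 12 fragments in a library for any of them. PPL, the periplakin that links desmosomes to keratin filaments, was at 65.9 and 63.2 FPKM in BT-20 and 0.0618 and 0.0655 FPKM in MDA-MB-468 (-5.95 ± 0.26). GLYR1, a nuclear chromatin factor, was at 65.8 and 77.3 FPKM in BT-20 and 0.684 and 0.181 FPKM in MDA-MB-468 (-5.68 ± 0.26). NUDT16L1 had no fragment in MDA-MB-468 and was at 27.6 and 23.4 FPKM in BT-20, at least 232-fold higher by the floor of 3 fragments. HMOX2, the constitutive heme oxygenase and the first gene of the run, kept 2.38 and 2.07 FPKM in MDA-MB-468, and it overlaps NMRAL1, so that reads could be divided between them. On either side the levels returned. NMRAL1 was at 145 and 105 FPKM in BT-20 and 55.7 and 68.3 FPKM in MDA-MB-468 (-0.99 ± 0.20) and NAGPA at 9.84 and 10.4 FPKM in BT-20 and 5.78 and 8.41 FPKM in MDA-MB-468 (-0.48 ± 0.26, adjusted p 0.103). SEC14L5, which meets the end of PPL, was instead higher in MDA-MB-468, at 5.06 and 5.4 FPKM in MDA-MB-468 and 0.134 and 0.0782 FPKM in BT-20 (2.49 ± 0.30).

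A total of 11 runs of at least 4 adjacent tested genes were at least 4-fold apart in 1 direction, 4 higher and 7 lower, and none apart from HMOX2 to PPL was longer than 5. Among the lower ones was PCBP3, COL6A1, COL6A2, FTCD and SPATC1L on chromosome 21 (median -3.89), which includes 2 chains of type VI collagen. Another held TCEAL8, BEX2, TCEAL9 and BEX3 on the X chromosome (median -4.48), a family of related small proteins. Over windows of 15 tested genes, the medians ran from -1.35 at the first percentile of the 13897 windows to 1.53 at percentile 99. On the long arm of chromosome 16, 3 of the 5 lowest windows that did not overlap lay between CDH5 and IST1. Of the 108 tested genes from CDH5 to IST1 (chr16:66366622-71931199) 95 were lower, 1 was higher and 12 were not called, with a median of -1.45. CDH1, CDH3, ESRP2, PSMB10 and NQO1, described below, lie in this stretch. Among the highest was the window from SUN3 to PSPHP1 on chromosome 7 (chr7:47987148-55773288), which includes EGFR, with 11 of 15 genes higher, 3 lower and a median of 2.02. A window from UBL5 to TYK2 on chromosome 19 had all 15 genes higher and a median of 2.10, and the window from CA9 to MELK on chromosome 9 had all 15 higher and a median of 1.84.

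Whole chromosomes were also uneven. Chromosome 18 had 65.6% of its 195 tested genes called higher and 8.72% called lower, with a median difference of 0.81. The medians of chromosomes 10, 6 and 11 were 0.61, 0.55 and 0.43. The lowest medians were those of chromosomes 20 (-0.46), 15 (-0.40), 9 (-0.40) and 16 (-0.30), and 48.0% of the 375 genes tested on chromosome 20 were called lower. SMAD4 and ELAC1 were thus low on the chromosome with the largest share of higher genes.

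**Figure D3:**
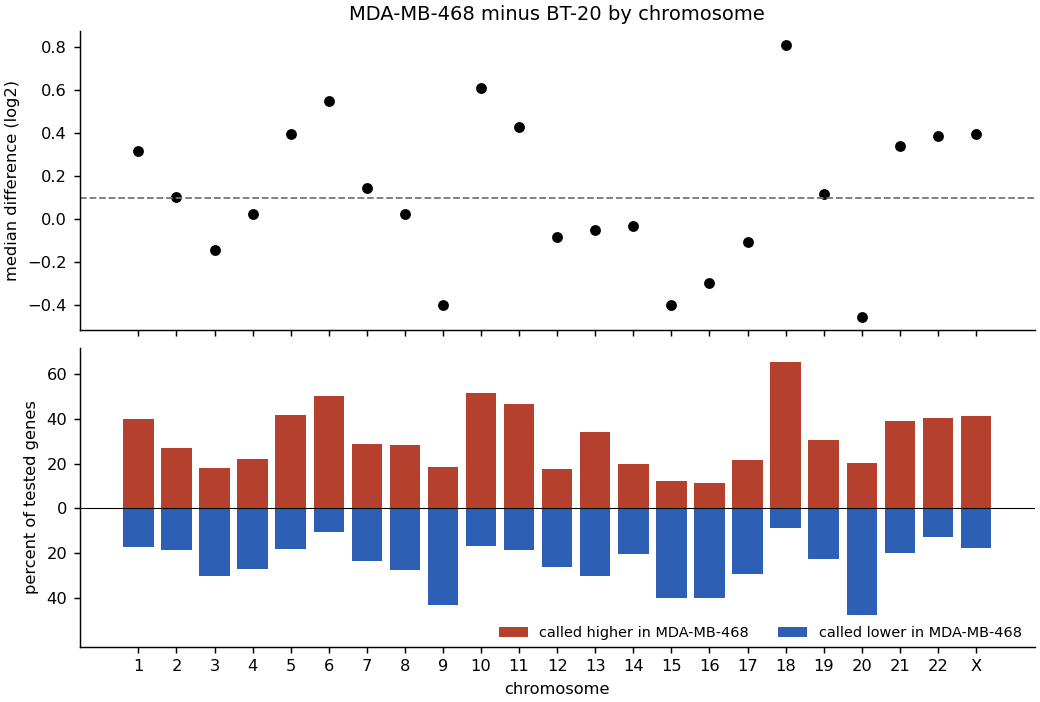
Median difference between the lines on each chromosome (upper panel, log2(FPKM + 1), dashed line at the median of all tested genes, 0.10) and the percent of its tested genes called higher (upward bars) or lower (downward bars) in MDA-MB-468 (lower panel). Chromosome 18 stood highest and chromosome 20 lowest.

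In total 19 gene lists of pathways and families were described by their counts, to be read against the 55.1% of all genes called and the 9.02% at least 4-fold apart. The share at least 4-fold apart was largest for aldehyde dehydrogenases and detoxifying enzymes, at 46.2% of 39 genes, for cancer-testis antigens, at 42.9% of 7, and for keratins, at 41.2% of 17. It was smallest for regulators of the G1 and S phases, at 4% of 25. The lists share some genes and their members were not chosen at random, so no test was made.

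**Figure D4:**
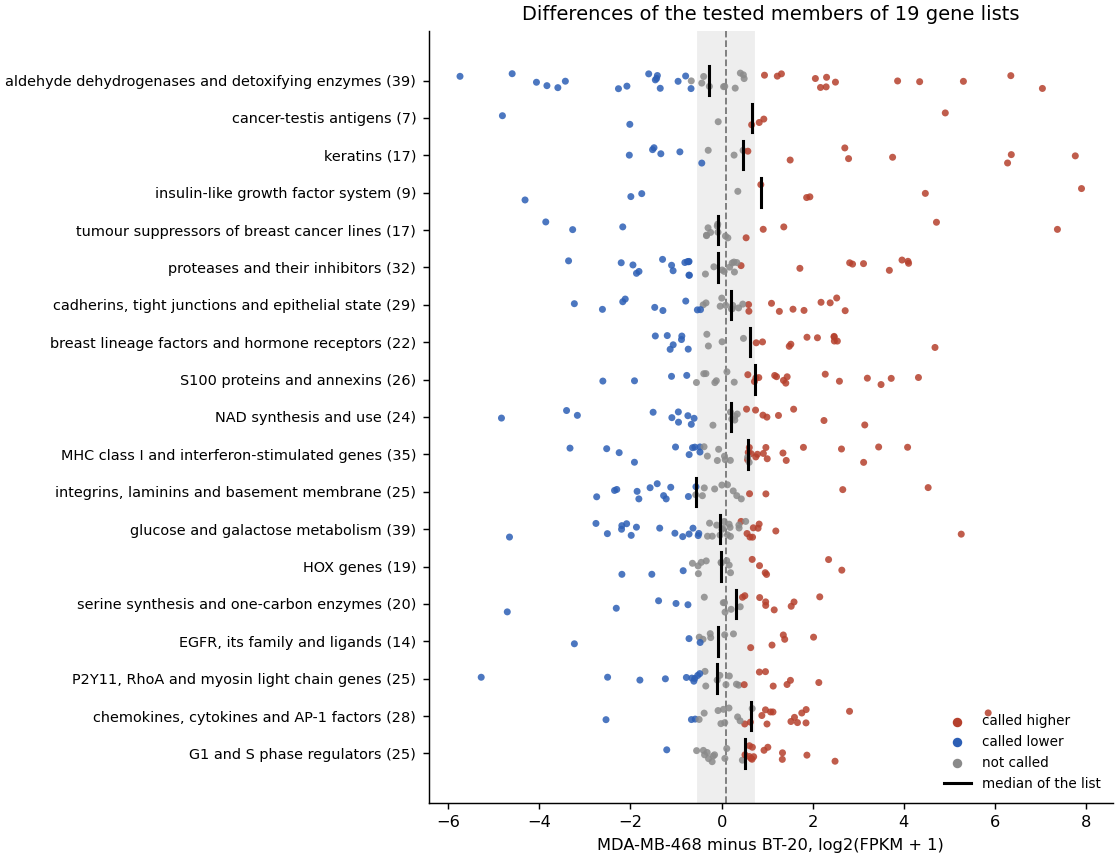
Difference between the lines for each tested member of the 19 gene lists (points, coloured by call, number tested in parentheses), ordered by the share at least 4-fold apart, with the median of each list as a black bar. The dashed line and grey band are the median and quartiles of all 14321 tested genes and the detoxifying enzymes at the top spread from -5.74 to 7.04.

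The detoxifying enzymes differed strongly in both directions. Of 39 tested genes 13 were higher, 16 lower and 10 not called, with 10 higher and 8 lower by at least 4-fold and a median of -0.27. In MDA-MB-468 the higher genes included ALDH7A1, an aldehyde dehydrogenase of lysine breakdown, at 174 and 163 FPKM in MDA-MB-468 and 0.0696 and 0.542 FPKM in BT-20 (7.04 ± 0.24). GSTP1, the pi class glutathione transferase, was at 83.9 and 88.3 FPKM in MDA-MB-468 and 1.66 and 0.809 FPKM in BT-20 (5.31 ± 0.24). ALDH2, the mitochondrial enzyme that clears acetaldehyde, was at 32.8 and 25.3 FPKM in MDA-MB-468 and 0.469 and 0.457 FPKM in BT-20 (4.35 ± 0.27). CYP4X1, an orphan cytochrome P450, was at 187 and 107 FPKM in MDA-MB-468 and 0.129 and 1.7 FPKM in BT-20 (6.35 ± 0.24), and GSTM3 was also higher (3.87). In BT-20 NQO1, the quinone reductase induced by NRF2, was at 2597 and 2298 FPKM in BT-20 and 147 and 143 FPKM in MDA-MB-468 (-4.06 ± 0.19). AKR1B1, an aldose reductase, was at 2932 and 2581 FPKM in BT-20 and 343 and 150.0 FPKM in MDA-MB-468 (-3.59 ± 0.19). AKR1C3, a steroid-reducing relative with near-identical copies in AKR1C1 and AKR1C2, was at 227 and 148 FPKM in BT-20 and 3.09 and 1.89 FPKM in MDA-MB-468 (-5.74 ± 0.23). UGT1A6, a glucuronosyltransferase that shares exons with the rest of its family, and ABCG2, a drug exporter, were lower as well (-4.60 and -3.83).

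Of 39 tested genes of glucose and galactose metabolism, 15 were lower in MDA-MB-468, 9 were higher and 15 were not called. The single gene at least 4-fold higher was LDHB, the lactate dehydrogenase subunit that favours lactate use, at 47 and 46.4 FPKM in MDA-MB-468 and 0.246 and 0.239 FPKM in BT-20 (5.26 ± 0.26), from 761 fragments in MDA-MB-468 and 4 in BT-20. HK2, an inducible hexokinase, was also higher (9.08 and 14.8 FPKM in BT-20 and 32.3 and 24 FPKM in MDA-MB-468, 1.19 ± 0.23). TKT, the transketolase of the pentose phosphate pathway, was at 1032 and 861 FPKM in BT-20 and 198 and 212 FPKM in MDA-MB-468 (-2.20 ± 0.19). TPI1, a triose isomerase of glycolysis, was at 1040.0 and 811 FPKM in BT-20 and 197 and 204 FPKM in MDA-MB-468 (-2.19 ± 0.19). SLC2A6, a glucose transporter of the lysosome, was at 47.2 and 54.9 FPKM in BT-20 and 1.34 and 0.811 FPKM in MDA-MB-468 (-4.66 ± 0.25). The 2 lines grew in media with different sugars, since Leibovitz L-15 holds galactose in place of glucose, and the part of the medium was not tested.

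The serine and one-carbon enzymes split as well, with 9 of 20 genes higher, 5 lower and 6 not called. PHGDH, the first enzyme of serine synthesis, was abundant in both lines, at 1412 and 1035 FPKM in BT-20 and 799 and 657 FPKM in MDA-MB-468 (-0.74 ± 0.19, adjusted p 0.000238), and PSPH, the last enzyme and the parent of the pseudogene PSPHP1, was higher in MDA-MB-468, at 403 and 334 FPKM in MDA-MB-468 and 219.9 and 159 FPKM in BT-20 (0.97 ± 0.19). SHMT1, the cytosolic serine hydroxymethyltransferase, was at 125 and 101 FPKM in BT-20 and 21.6 and 21.9 FPKM in MDA-MB-468 (-2.31 ± 0.21). ALDH1L1 and ALDH1L2 are the cytosolic and mitochondrial forms of 10-formyltetrahydrofolate dehydrogenase, and they went in opposite directions. ALDH1L1 was at 30.1 and 21.9 FPKM in BT-20 and 0 and 0.0466 FPKM in MDA-MB-468 (-4.70 ± 0.28), while ALDH1L2 was at 4 and 4.58 FPKM in BT-20 and 26.9 and 18.9 FPKM in MDA-MB-468 (2.16 ± 0.25). Of 24 genes of NAD synthesis and use, 8 were higher, 10 lower and 6 not called. NAPRT, the entry to NAD from nicotinic acid, was at 54.7 and 46.6 FPKM in BT-20 and 1.15 and 0.521 FPKM in MDA-MB-468 (-4.83 ± 0.26), and NNMT, which methylates nicotinamide, was at 168 and 178 FPKM in BT-20 and 15.1 and 15.7 FPKM in MDA-MB-468 (-3.40 ± 0.21). KYNU, the kynureninase of the route that leads to QPRT, was at 38 and 33 FPKM in MDA-MB-468 and 3 and 13.7 FPKM in BT-20 (2.25 ± 0.24), and the 2 BT-20 libraries were far apart.

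The basal keratins KRT5, KRT14 and KRT17 were higher in MDA-MB-468, and KRT8 and KRT18 of simple epithelia were lower. Of 17 tested keratins 8 were higher, 6 lower and 3 not called, with a median of 0.47. KRT5, a basal keratin, was at 642 and 983 FPKM in MDA-MB-468 and 294 and 265 FPKM in BT-20 (1.51 ± 0.19), and its partner KRT14 was at 5.76 and 40.6 FPKM in MDA-MB-468 and 0.33 and 0.161 FPKM in BT-20 (3.76 ± 0.28). KRT17, a basal and stress keratin, was at 237 and 373 FPKM in MDA-MB-468 and 2.76 and 2.51 FPKM in BT-20 (6.36 ± 0.22). In KRT14 and KRT17 the MDA-MB-468 library with the QPRT shRNA was above the control library, although both exceeded BT-20. KRT8, a keratin of simple epithelia, was at 4010.5 and 4214 FPKM in BT-20 and 1719 and 1548 FPKM in MDA-MB-468 (-1.33 ± 0.19), its partner KRT18 was at 1355 and 1276 FPKM in BT-20 and 506 and 436 FPKM in MDA-MB-468 (-1.48 ± 0.19), and KRT4, a keratin of stratified mucosa, was at 160.4 and 161 FPKM in BT-20 and 39.1 and 38.4 FPKM in MDA-MB-468 (-2.03 ± 0.20). KRT19 was not called (3577 and 3566 FPKM in BT-20 and 2849.8 and 2981 FPKM in MDA-MB-468, -0.29 ± 0.19, adjusted p 0.177).

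Of 22 lineage factors and receptors, 11 were higher, 7 lower and 4 not called, and the 6 that were at least 4-fold apart were all higher in MDA-MB-468. ID4, an inhibitor of DNA-binding factors linked to basal-like cancers, was at 104 and 110.1 FPKM in MDA-MB-468 and 2.57 and 3.91 FPKM in BT-20 (4.69 ± 0.23). BCL11A, a zinc finger factor of the same setting, was at 4.8 and 5.62 FPKM in MDA-MB-468 and 0.0434 and 0.0844 FPKM in BT-20 (2.54 ± 0.30). SPDEF, an ETS factor of secretory epithelium, was at 106 and 107 FPKM in MDA-MB-468 and 19.6 and 17.2 FPKM in BT-20 (2.48 ± 0.21), and NOTCH3, a Notch receptor, was at 336 and 337 FPKM in MDA-MB-468 and 44.7 and 79.8 FPKM in BT-20 (2.47 ± 0.20). KIT, the receptor of stem cell factor, had no fragment in BT-20 and was at 2.06 and 9.04 FPKM in MDA-MB-468. GATA3, a luminal factor, was at 76.1 and 78.1 FPKM in BT-20 and 38.6 and 44.5 FPKM in MDA-MB-468 (-0.88 ± 0.21), while FOXA1, another, was not called (85.9 and 99.5 FPKM in BT-20 and 78.2 and 72.9 FPKM in MDA-MB-468, -0.29 ± 0.20, adjusted p 0.219). Of the receptors that define triple-negative disease, ESR1 was at 5.51 and 5.76 FPKM in BT-20 and 1.87 and 1.05 FPKM in MDA-MB-468 (-1.45 ± 0.29) and ERBB2 at 129 and 122 FPKM in BT-20 and 58.1 and 50.7 FPKM in MDA-MB-468 (-1.19 ± 0.20). PGR was listed at 0 in all 4 libraries.

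EGFR was higher in MDA-MB-468, at 820.1 and 951 FPKM in MDA-MB-468 and 179 and 262 FPKM in BT-20 (2.02 ± 0.19), although it was also abundant in BT-20. Of 14 tested genes of its family and targets, 5 were higher, 3 lower and 6 not called, with a median of -0.08. The ligands divided between the lines. EREG, epiregulin, was at 2.95 and 22.3 FPKM in BT-20 and 0.0421 and 0 FPKM in MDA-MB-468 (-3.23 ± 0.29), and its level in the 2 BT-20 libraries differed widely. HBEGF, heparin-binding EGF-like growth factor, was at 5.9 and 5 FPKM in MDA-MB-468 and 1.22 and 3.02 FPKM in BT-20 (1.11 ± 0.28) and EGF itself at 4.29 and 1.66 FPKM in MDA-MB-468 and 0.358 and 0.582 FPKM in BT-20 (1.36 ± 0.30). DUSP6, a phosphatase induced by ERK, was at 10.4 and 10.1 FPKM in MDA-MB-468 and 2.13 and 4.9 FPKM in BT-20 (1.39 ± 0.27). DUSP6 does not stand for the other targets, which went both ways. DUSP4 (-0.71 ± 0.21) and ERRFI1 (-0.47 ± 0.20) were called lower, and SPRY2 (0.64 ± 0.24) was called higher. In the insulin-like growth factor system 8 of 9 tested genes were called, 5 higher and 3 lower. The binding proteins differed in both directions, with IGFBP3 and IGFBP4 higher in MDA-MB-468 (7.90 and 4.47) and IGFBP5 and IGFBP2 lower (-4.31 and -1.99). IGFBP5 was at 2117 and 1645 FPKM in BT-20 and 69.7 and 123 FPKM in MDA-MB-468. The receptor IGF1R was lower in MDA-MB-468 (43.8 and 56.5 FPKM in BT-20 and 13.2 and 15 FPKM in MDA-MB-468, -1.75 ± 0.22) and its adaptors IRS1 and IRS2 were higher (1.87 and 1.94).

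Of 25 G1 and S phase regulators 13 were higher, 1 lower and 11 not called, with a median of 0.51. CDKN2D, the p19 inhibitor of CDK4 and CDK6, was at 32.8 and 38.8 FPKM in MDA-MB-468 and 5.48 and 5.56 FPKM in BT-20 (2.49 ± 0.24). E2F2 and E2F3, activators of S phase genes, were higher (1.87 and 1.34), as were the replication helicase subunit MCM3 (1.33) and the proliferation marker MKI67 (1.02). CCND3, cyclin D3, was the gene called lower, at 177 and 159 FPKM in BT-20 and 67.2 and 77.9 FPKM in MDA-MB-468 (-1.20 ± 0.20). Only CDKN2D in this list was at least 4-fold apart.

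Adhesion genes were mixed. Of 29 tested genes of junctions and epithelial state, 10 were higher, 9 lower and 10 not called. CDH1 and CDH3, cadherins of epithelia, were lower in MDA-MB-468, with CDH1 (E-cadherin) at 339.6 and 353 FPKM in BT-20 and 76.3 and 76.1 FPKM in MDA-MB-468 (-2.17 ± 0.19) and CDH3 (P-cadherin) at 427 and 356 FPKM in BT-20 and 33.5 and 49.2 FPKM in MDA-MB-468 (-3.23 ± 0.20). ESRP2, a splicing factor of epithelial cells, was at 142 and 143 FPKM in BT-20 and 32.9 and 31.4 FPKM in MDA-MB-468 (-2.12 ± 0.21). SNAI2, a repressor of E-cadherin, had no fragment in MDA-MB-468 and was at 4.9 and 5.37 FPKM in BT-20, and its relative SNAI1 was also lower (-1.47). A set of 3 desmosomal genes went the other way, with DSP (desmoplakin) at 104 and 92.6 FPKM in MDA-MB-468 and 14.2 and 22.7 FPKM in BT-20 (2.38 ± 0.21) and the desmocollins DSC2 and DSC3 higher (2.18 and 2.71). EPCAM was higher (359 and 342 FPKM in MDA-MB-468 and 148 and 181 FPKM in BT-20, 1.10 ± 0.19), and VIM, the intermediate filament of mesenchymal cells, was low in both (1.87 and 2.14 FPKM in BT-20 and 9.19 and 9.88 FPKM in MDA-MB-468, 1.81 ± 0.28). Integrins and laminins were lower in 12 of 25 tested genes and higher in 4, with 9 not called and a median of -0.56. LAMB3, a chain of laminin-332, was at 45.8 and 64.1 FPKM in BT-20 and 5.16 and 10.1 FPKM in MDA-MB-468 (-2.74 ± 0.23). LAMC1, the common gamma chain, was at 205 and 168 FPKM in BT-20 and 40.0 and 34 FPKM in MDA-MB-468 (-2.30 ± 0.20), and ITGA5, the fibronectin receptor subunit, was at 18.9 and 23.8 FPKM in BT-20 and 3.27 and 3.46 FPKM in MDA-MB-468 (-2.35 ± 0.26). LAMA4, a laminin chain of vessels and muscle, was the exception with the largest rise, at 34.1 and 39.9 FPKM in MDA-MB-468 and 0.362 and 0.957 FPKM in BT-20 (4.54 ± 0.26).

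HLA-B and HLA-F, genes of MHC class I, were higher in MDA-MB-468, and interferon-stimulated genes differed in both directions. Of 35 tested genes 16 were higher, 10 lower and 9 not called, with a median of 0.57. HLA-B was at 211 and 372 FPKM in MDA-MB-468 and 33.4 and 29.4 FPKM in BT-20 (3.12 ± 0.20) and HLA-F at 24.4 and 41.9 FPKM in MDA-MB-468 and 1.54 and 2.6 FPKM in BT-20 (3.45 ± 0.26). These genes are near copies of each other and vary between people, so reads could be divided or lost unevenly between the lines. ERAP1, which trims peptides for MHC class I, was higher (1.80), as was IFI44, an interferon-stimulated gene, at 5.77 and 9.19 FPKM in MDA-MB-468 and 0.106 and 0.621 FPKM in BT-20 (2.63 ± 0.29). BST2, tetherin, was at 534 and 516 FPKM in BT-20 and 31.3 and 83.9 FPKM in MDA-MB-468 (-3.33 ± 0.19), IFITM1, an antiviral membrane protein, was at 63.5 and 47.7 FPKM in BT-20 and 6.12 and 12.4 FPKM in MDA-MB-468 (-2.52 ± 0.23), and PSMB10, an immunoproteasome subunit, was lower (-2.25). IFIT1 (0.61 ± 0.30, adjusted p 0.0787), IFIT2 (0.08 ± 0.28, 0.828) and IFIT3 (0.57 ± 0.28, 0.0651), 3 other interferon-stimulated genes, were not called by limma, although limma-voom on the recovered fragments called IFIT1 and IFIT3 higher. In the chemokine, cytokine and AP-1 list 15 of 28 tested genes were higher, 3 lower and 10 not called, with a median of 0.65. CSF1, macrophage colony-stimulating factor, was at 78.6 and 116 FPKM in MDA-MB-468 and 0.545 and 0.795 FPKM in BT-20 (5.85 ± 0.25), and CXCL8 (interleukin-8) was at 9.58 and 8.42 FPKM in MDA-MB-468 and 1.03 and 2.75 FPKM in BT-20 (1.85 ± 0.28). LCN2, the iron-siderophore carrier lipocalin-2, was at 743 and 845 FPKM in BT-20 and 173 and 106 FPKM in MDA-MB-468 (-2.54 ± 0.19).

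Among proteases and their inhibitors 9 of 32 tested genes were higher, 14 lower and 9 not called, but 7 of the 9 at least 4-fold apart were higher. PLAU, the urokinase plasminogen activator, was at 18.8 and 21.2 FPKM in MDA-MB-468 and 0.296 and 0.144 FPKM in BT-20 (4.11 ± 0.28), and MMP14, a membrane-bound metalloprotease, was at 23.4 and 39.4 FPKM in MDA-MB-468 and 0.966 and 0.723 FPKM in BT-20 (4.09 ± 0.27). MMP7, matrilysin, had no fragment in BT-20 and was at 7.33 and 18.8 FPKM in MDA-MB-468, at least 110.1-fold higher by the floor of 3 fragments. TIMP3, an inhibitor of metalloproteases held in the matrix, was at 8.55 and 25.5 FPKM in MDA-MB-468 and 0.0409 and 0 FPKM in BT-20 (3.96 ± 0.29). CST6, a cystatin inhibitor of lysosomal proteases, was at 82.7 and 72.8 FPKM in BT-20 and 7.7 and 5.74 FPKM in MDA-MB-468 (-3.36 ± 0.23). Of 26 tested S100 proteins and annexins 15 were higher, 4 lower and 7 not called, with a median of 0.74. S100A4, a calcium-binding protein of motile cells, was at 153 and 213 FPKM in MDA-MB-468 and 5.23 and 12.2 FPKM in BT-20 (4.32 ± 0.22), and ANXA1, annexin A1, was at 262 and 232 FPKM in MDA-MB-468 and 17.5 and 90.7 FPKM in BT-20 (2.59 ± 0.20). S100A7, psoriasin, was at 217 and 139 FPKM in MDA-MB-468 and 5.72 and 52.7 FPKM in BT-20 (3.20 ± 0.21), and S100P was at 203 and 265 FPKM in BT-20 and 59.5 and 23.1 FPKM in MDA-MB-468 (-2.61 ± 0.20). For ANXA1 and S100A7 the 2 BT-20 libraries differed by several fold, yet neither reached MDA-MB-468.

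Among 25 tested genes of P2Y11, RhoA and the myosin light chain, 7 were higher, 10 lower and 8 not called. P2RY11, the purinergic receptor, was at 16 and 22.3 FPKM in MDA-MB-468 and 3.39 and 3.67 FPKM in BT-20 (2.14 ± 0.26), and it shares its locus with PPAN, so that reads could be divided. MYL9, a regulatory myosin light chain of contractile cells, was at 57.6 and 34 FPKM in BT-20 and 0.238 and 0.101 FPKM in MDA-MB-468 (-5.28 ± 0.27), from 7 fragments in MDA-MB-468 and 1888 in BT-20. The list also held the light chain genes MYL12A and MYL12B, which were not among its 5 largest called differences in either direction. Their values are not given here, so MYL9 does not stand for the light chain genes as a set. RHOC, a small GTPase, was at 551 and 465 FPKM in BT-20 and 138 and 153 FPKM in MDA-MB-468 (-1.79 ± 0.19).

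Of 36 cancer-testis antigens 29 were below the filter, and of the 7 tested 4 were higher, 2 lower and 1 not called. CT83 was at 34.3 and 33.2 FPKM in MDA-MB-468 and 0 and 0.335 FPKM in BT-20 (4.91 ± 0.27), and PRAME, a repressor of retinoic acid signalling, was at 24 and 34.9 FPKM in BT-20 and 0.0653 and 0.0693 FPKM in MDA-MB-468 (-4.81 ± 0.28). The MAGEA12 and MAGEA6 genes were expressed in both lines and were higher in MDA-MB-468 (0.93 and 0.66), and their sequences are close to those of other MAGEA genes. Among 19 tested HOX genes, which mark position along the body axis, 6 were higher, 3 lower and 10 not called. HOXA10 had no fragment in BT-20 and was at 3.18 and 5.22 FPKM in MDA-MB-468. HOXC12 was at 4.9 and 6.13 FPKM in MDA-MB-468 and 0 and 0.0825 FPKM in BT-20 (2.64 ± 0.30) and HOXB5 at 3.97 and 3.37 FPKM in BT-20 and 0.0448 and 0 FPKM in MDA-MB-468 (-2.19 ± 0.31).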

How the data were processed

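RNA of 4 libraries was sequenced by the authors, 1 per line and shRNA (TruSeq libraries, Illumina NovaSeq system). Per the submitters' processing notes, TopHat2 2.0.12, HTSeq 0.6.1, CASAVA, FastQC and MultiQC were used, and the authors deposited FPKM values per Ensembl gene. The genome build and annotation behind them are not given in the sources used here. The table had 50653 rows, of which 49414 had a symbol and 49839 a transcript length in GENCODE 29 (GRCh38), the source of all gene coordinates here, and 27 repeat rows of a symbol were left out. FPKM multiplied by the mean transcript length gave whole fragments within 0.02 for 97.6 to 97.8% of genes with 1 transcript and for 85.3 to 85.6% of all genes, which gave the depth of each library and hence its counting error.

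Differences were fitted by limma 3.58.1 (R 4.3.3) on log2(FPKM + 1), a scale that understates the change of genes with low values, keeping genes that averaged 1 FPKM or more, with shRNA as a block, a mean-variance trend and Benjamini-Hochberg adjustment over all genes tested. There was 1 residual degree of freedom per gene, the line by shRNA interaction, and the prior degrees of freedom were infinite, so the standard error is a trend shared by genes of like level. Nothing marks the libraries as separate cultures of a condition. The p-values set each difference against this shared trend, so neither a gene's own spread nor that between cultures enters them. The deposited values are not counts, so the count model named in the study's methods was not used. The fit was also run on simulated data, where it recovered 100% of 200 genes changed 4-fold, with 2.91% of calls false. The simulated errors were drawn from the same spread that the fit assumes. Such a run checks the code and cannot show how often calls are false in these data. A gene was called at an adjusted p under 0.05. At an unadjusted p under 0.05, 8543 genes passed.

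Genes named were QPRT; the 12 largest differences in each direction among called genes with a symbol, a mean of at least 5 FPKM and lines that did not overlap; of each list the defining genes and up to 5 called genes with the largest differences in each direction; the 10 highest genes of each line-restricted group; and the 10 tested neighbours on each side of tumour suppressors, given here for CDKN2A, RB1 and SMAD4. Of these, those with a clear role are described, and some genes that meet this rule are not reported here. Runs, windows and the genes in them, MSX2, CCN2, PECAM1, VWF, KDR and the genes with opposite differences were picked with their values in view. The members and lists were chosen with earlier results of these data known. Promoters were RefSeq sequences of GRCh38.p14, matched by symbol, with the first listed window kept for each symbol. Alternatives were a pseudocount of 0.1, other scalings, filters and models, and leaving out each library.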

Additional observations from a re-analysis of the deposited data

Results flagged for a closer look

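A few genes differed between the lines in opposite directions with the 2 shRNAs. In 5 genes, which were all not called, the difference was at least 2-fold each way. The difference between the shRNAs was not tested, since each rests on 1 library against 1. INPP4B, a phosphatase of phosphoinositides, was at 8.88 and 34.4 FPKM in BT-20 and 20.9 and 13.3 FPKM in MDA-MB-468, and MDA-MB-468 minus BT-20 was 1.15 with the control shRNA and -1.31 with the QPRT shRNA on the log2(FPKM + 1) scale. NPY1R, a receptor of neuropeptide Y, was at 3 and 2.03 FPKM in BT-20 and 0 and 5.51 FPKM in MDA-MB-468, with differences of -1.999 and 1.10. The immunoglobulin segment IGKJ5, with 3 fragments in all 4 libraries together, had differences of -2.57 and 1.83. The pseudogene ENSG00000254198 had 1.39 and -1.50, and ENSG00000277877 had 1.32 and -1.41. Among called genes, ERRFI1, a feedback inhibitor of EGFR at 107 and 161 FPKM in BT-20 and 113 and 79.2 FPKM in MDA-MB-468, had differences of 0.073 and -1.01.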

How the results depend on the processing

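With a pseudocount of 0.1, the genes at least 4-fold apart and called numbered 2147, with limma-voom on recovered fragments 2154 and with a mean FPKM of at least 5 they numbered 858, against 1292. Without any 1 library, and so without the shRNA block, 2436 to 2749 genes were higher and 2014 to 2125 lower, since 1 line then had 1 library that is assumed to vary like the other, while 1274 to 1353 were at least 4-fold apart. The QPRT difference ran from -2.40 to 0.22 without 1 library, as unlike shRNAs are then compared, and changed sign without the BT-20 control library (0.20) and without the MDA-MB-468 QPRT shRNA library (0.22). Line-restricted genes of MDA-MB-468 numbered 104 at 1/100 and 295 at a minimum of 1 FPKM, and those of BT-20 265 at a minimum of 1 FPKM and 79 at a minimum of 10 FPKM. Genes at least 2-fold apart in opposite directions with the 2 shRNAs numbered 29 with a pseudocount of 0.1. The other settings kept each count of calls within 1.5 times. Of 272 genes named or neighbouring them, 272 kept their call and direction with a pseudocount of 0.1, under TPM and under upper quartile scaling, 268 with limma-voom, and 232 without a filter. Without 1 library, 222 to 234 of the 272 kept their call and 37 to 49 lost it. Among the genes described above, ANXA1, CXCL8, DUSP6, E2F3, EGF, EREG, HBEGF, HK2, IRS1, KIT, KRT5, KRT14, KYNU, MAGEA6, MAGEA12, ME2, MKI67, PHGDH, PSPH, QPRT, S100A7 and S100P lost a call without at least 1 library, with fewer libraries in the fit. Without a filter, HBEGF, EGF, HK2, PHGDH, S100A7 and ME2 lost theirs, with more genes tested. DUSP4, ERRFI1 and SPRY2 were left out of both of these lists. IFIT1 and IFIT3 were called with limma-voom and without the mean-variance trend. Replicate numbers only name the libraries here. The paired fit is the one reported, since the shRNA pairs the libraries across lines, and without that block 7714 genes were called, of which 7493 were shared with the 7893. The alternative of at least 100 fragments over the 4 libraries, chosen after seeing the data, gave 7199 calls, 7076 of them shared. Genes with few fragments are limited by counting error, and 1 library per line and shRNA limits every comparison.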
